A study of Mus musculus with 12 samples.

Results

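Kidney mRNA of 10 antioxidant enzyme genes was followed here: the superoxide dismutases Sod1, Sod2 and Sod3, catalase (Cat) and the peroxiredoxins Prdx1 to Prdx6. They were taken by gene name from the 22053 rows of the deposited kidney RNA-seq table, and all 10 were found. The tissue was whole kidney of C57BL/6 mice in 3 groups of 4. Control mice ate a control diet and received weekly PBS. CKD mice ate the same diet with 0.2% adenine for 8 weeks, to 16 weeks of age, and also received weekly PBS. Mice of the CKD+Fe group ate the adenine diet and received iron dextran at 0.5 g/kg by weekly intraperitoneal injection. The comparisons ask how the mRNA of each enzyme differed in adenine-induced chronic kidney disease and whether it differed further with iron.

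Superoxide dismutases turn superoxide into hydrogen peroxide, and catalase and the peroxiredoxins remove that peroxide. The enzymes are divided among compartments: Sod1, Prdx1, Prdx2 and Prdx6 are mainly cytosolic, Sod2 and Prdx3 are mitochondrial, Prdx5 is found in mitochondria, peroxisomes and cytosol, Cat is peroxisomal, Prdx4 sits in the endoplasmic reticulum (ER), and Sod3 is secreted. Most peroxiredoxins are reduced again by thioredoxin, whereas catalase needs no reducing partner and carries heme iron. In the kidney, the proximal tubule is rich in mitochondria and peroxisomes.

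Expression is given as FPKM (sequenced fragments divided by transcript length and library total), and changes are on the log2(FPKM + 1) scale. The 13148 genes that reached 1 FPKM in 4 or more mice were fitted together with limma, and an adjusted p under 0.05 was called. All 10 genes passed this filter, each in all 12 mice. The FPKM scale itself moved with disease: Kap, a proximal tubule transcript, took 10.6% to 12.7% of a control mouse's FPKM total and 0.188% to 1.70% in the adenine-fed mice, and the median gene was 0.50 higher on the log2 scale in CKD than in control. In CKD against control, each change of the 10 genes is therefore read beside this 0.50. It is also given after median-of-ratios rescaling, which set the median gene to 0.01. Other changes are on the deposited scale unless rescaling is named. One mouse in each group stood apart from its group, with 595 genes at least 2-fold from the rest in control mouse 042301, 805 in CKD mouse 110310 and 442 in CKD+Fe mouse 042702, against 41 to 225 in the other mice. FPKM totals ran from 503438 to 707843, and since no counts were used here the read depth behind each value is unknown.

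In control kidney Prdx5 stood first at 1848 ± 466 FPKM (SD, n = 4), ahead of Sod1 at 1341 ± 264, with overlapping ranges. Prdx1 followed at 899.8 ± 135 and Cat at 499 ± 16.6, each clear of its neighbours. Prdx6 at 211 ± 15.2, Prdx3 at 208 ± 15.7, Prdx2 at 203 ± 43.3 and Sod3 at 163 ± 19.7 FPKM overlapped from each to the next. Sod2 at 99.6 ± 3.84 and Prdx4 at 28.0 ± 1.88 FPKM closed the order. Together the 10 genes made up 0.813% to 0.904% of the FPKM total of a control mouse, 0.407% to 0.468% in CKD and 0.448% to 0.551% in CKD+Fe, so the groups with adenine lay below every control mouse.

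The promoters of 4 of these genes are shown because they stand at different places in the results: Cat and Sod1 fell far, Prdx1 fell less, and Prdx4 had the opposite sign on the deposited scale. RefSeq windows (GRCm38.p6) of 250 bases before to 50 after the RefSeq start were found for 8 of the 10, all but Sod3 and Prdx6. The whole Prdx4 window lies inside the gene span of the deposited values (chrX:155323918-155340754), unlike the other windows shown. For Prdx4 the 2 annotations thus place the start differently. They were searched on both strands for the antioxidant response element core TGACNNNGC, the GC box GGGCGG and the CCAAT box CCAAT. Capitals mark every match, read 5′ to 3′ along the gene.
Cat (chr2:103485104-103485403, minus strand): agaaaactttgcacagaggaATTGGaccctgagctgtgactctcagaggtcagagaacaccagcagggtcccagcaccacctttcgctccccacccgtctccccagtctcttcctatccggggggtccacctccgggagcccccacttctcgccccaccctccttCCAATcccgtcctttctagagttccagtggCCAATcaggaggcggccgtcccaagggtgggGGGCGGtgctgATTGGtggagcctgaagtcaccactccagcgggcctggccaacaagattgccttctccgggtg
Sod1 (chr16:90220512-90220811, plus strand): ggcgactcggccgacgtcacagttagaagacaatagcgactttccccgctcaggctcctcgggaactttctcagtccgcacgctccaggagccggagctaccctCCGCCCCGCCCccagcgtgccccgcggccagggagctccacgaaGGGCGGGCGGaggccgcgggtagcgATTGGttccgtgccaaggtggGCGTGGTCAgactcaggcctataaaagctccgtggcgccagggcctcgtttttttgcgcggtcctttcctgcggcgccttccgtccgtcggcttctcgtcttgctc
Prdx1 (chr4:116685349-116685648, plus strand): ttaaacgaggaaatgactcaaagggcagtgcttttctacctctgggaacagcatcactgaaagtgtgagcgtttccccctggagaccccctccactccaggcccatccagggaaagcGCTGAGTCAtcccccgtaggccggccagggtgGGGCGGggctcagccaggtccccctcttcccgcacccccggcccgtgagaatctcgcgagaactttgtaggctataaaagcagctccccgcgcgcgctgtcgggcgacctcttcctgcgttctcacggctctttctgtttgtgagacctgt
Prdx4 (chrX:155338411-155338710, minus strand): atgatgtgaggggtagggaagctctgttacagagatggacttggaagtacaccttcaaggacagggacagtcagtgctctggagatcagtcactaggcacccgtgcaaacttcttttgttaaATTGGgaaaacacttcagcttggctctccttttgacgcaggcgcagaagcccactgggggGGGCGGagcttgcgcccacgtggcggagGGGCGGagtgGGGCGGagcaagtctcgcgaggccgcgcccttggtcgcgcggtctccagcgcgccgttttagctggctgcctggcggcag
The response element core was present in 2 of the 8 windows, from position -56 relative to the start in Sod1 and from -133 in Prdx1, both on the opposite strand, and in 12.4% of all 32851 windows. A GC box was found in 8 of the 8, against 35.7% of all windows, and a CCAAT box in 4 of the 8 (Sod1, Sod2, Cat and Prdx4), against 37.4%. Such matches describe the sequence and were not related to binding.

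Among the superoxide dismutases, mRNA of all 3 was lower in CKD. Sod1 (ENSMUSG00000022982, chr16:90220742-90226322 of GRCm38, plus strand) encodes the copper and zinc enzyme of the cytosol. Its levels were 1249.9, 1296, 1716 and 1100.4 FPKM in control mice 012811, 012822, 042301 and 042310, 411, 367, 604 and 336 in CKD mice 021320, 022301, 110310 and 120102, and 466, 667, 491 and 573 in CKD+Fe mice 042702, 062910, 111710 and 122320. The highest CKD value, that of mouse 110310, was still far below the lowest control value, while CKD and CKD+Fe overlapped. The CKD mean was 32.0% of control, a log2 change of -1.66 ± 0.21 (SE; limma adjusted p = 1.43e-05), and -2.24 after rescaling. Because this is bulk tissue, fewer cells of a type and less RNA per cell cannot be told apart for this or any later value.

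Mitochondrial superoxide is handled by the manganese enzyme Sod2 (ENSMUSG00000006818, chr17:13007839-13018119, plus strand). In the same mouse order, Sod2 measured 99.5, 94.5, 104 and 100.6 FPKM in control, 54.4, 33.6, 38.6 and 39.5 in CKD, and 39.8, 52.9, 63.9 and 52.1 in CKD+Fe. Control values lay within a narrow band, with an SD of 3.84 FPKM, and no adenine-fed mouse reached it. Sod2 in CKD was 41.7% of control, a log2 change of -1.26 ± 0.16 (limma adjusted p = 1.84e-05), and -1.83 after rescaling.

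Sod3 (ENSMUSG00000072941, chr5:52363791-52371418, plus strand) encodes the secreted enzyme, which binds to the extracellular matrix and vessel walls. Control mice had 156, 162, 190.1 and 143 FPKM, CKD mice 44.4, 31.8, 91.9 and 43.3, and CKD+Fe mice 50.5, 52.8, 41.8 and 33.0. Mouse 110310 was apart from the other CKD mice, of which the next highest was at 44.4, but was below all controls. The log2 change in CKD was -1.71 ± 0.26 (limma adjusted p = 6.89e-05), -2.28 after rescaling, and -2.01 without mouse 110310. In that mouse the summed FPKM was 9601 for 14 proximal tubule genes, 303 for 8 vascular and smooth muscle genes and 771 for 7 fibroblast genes. Each was the highest of the CKD group. From control to CKD the mean sum fell from 82342 to 5417 for the proximal tubule genes. Kap alone averaged 73018 FPKM in control and 3585 in CKD, so this sum mostly follows Kap and not the whole list. The mean sum rose from 98.1 to 235 for the vascular and smooth muscle genes and from 76.5 to 523 for the fibroblast genes. The vascular rise lay mostly in Acta2 (35.9 to 78.7 FPKM) and Tagln (31.4 to 125). Fbln5 was at 23.4 and 23.9, and the means of Myh11 (3.43 to 2.53) and Cnn1 (1.46 to 0.968) were lower in CKD. The part of these cell types in the Sod3 values was not tested.

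Catalase mRNA was among the most reduced of the 10 genes in CKD. Cat (ENSMUSG00000027187, chr2:103453849-103485160, minus strand), the heme enzyme of the peroxisome, measured 488, 517, 482 and 509 FPKM in control, 176, 117, 142 and 140.4 in CKD, and 174, 250.1, 299 and 276 in CKD+Fe. The control mice differed little among themselves, with an SD of 16.6 FPKM, and every adenine-fed mouse was below them. Of the CKD+Fe mice, 3 of 4 lay above every CKD mouse, and mouse 042702 lay just under the highest. Cat in CKD was 28.8% of control, with a log2 change of -1.80 ± 0.17 (limma adjusted p = 1.8e-06) and -2.38 after rescaling. The order of Cat and Sod3 depended on the setting: Cat was the more negative as deposited and after rescaling, Sod3 with quantile normalization (-1.57 against -1.50) and without mouse 110310 (-2.01 against -1.80).

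Of the peroxiredoxins with a mitochondrial form, Prdx5 (ENSMUSG00000024953, chr19:6906697-6910106, minus strand) had the higher level in every mouse. Prdx5 stood at 1746, 1611, 2530 and 1504 FPKM in control, 572, 556, 717 and 507 in CKD, and 579.9, 824, 705 and 786 in CKD+Fe. Mouse 042301 was the highest control for both Prdx5 and Sod1, but all controls exceeded all adenine-fed mice. The log2 change in CKD was -1.63 ± 0.19 (limma adjusted p = 9.87e-06), or 31.8% of control, and -2.21 after rescaling.

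Prdx3 (ENSMUSG00000024997, chr19:60864051-60874556, minus strand), the peroxiredoxin confined to mitochondria, measured 225, 210.1, 187 and 210.4 FPKM in control mice. CKD mice had 133, 96.5, 110.5 and 99.1 FPKM, and CKD+Fe mice 103, 143, 139 and 140.03. No adenine-fed mouse overlapped the controls, and mouse 042702 lay under the other CKD+Fe mice, which were close together. Its CKD mean was 52.8% of control (log2 change -0.92 ± 0.14, limma adjusted p = 9.02e-05), and the change was -1.50 after rescaling.

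The cytosolic peroxiredoxins had changes smaller in size than those of Prdx3 and Prdx5 on the deposited scale. Prdx1 (ENSMUSG00000028691, chr4:116685544-116700822, plus strand), a thioredoxin-dependent peroxidase, had 984, 942, 699 and 974 FPKM in control, 619, 579.9, 628 and 546 in CKD, and 666, 668, 704 and 631 in CKD+Fe. All CKD mice were below all controls, although control mouse 042301 came within the range of the CKD+Fe mice. The log2 change in CKD was -0.59 ± 0.14 (limma adjusted p = 0.00262), and -1.17 after rescaling. With quantile normalization it was -0.27 and was not called (limma adjusted p = 0.241).

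Prdx2 (ENSMUSG00000005161, chr8:84969587-84974834, plus strand), best known as an abundant red cell protein, measured 192, 183, 267 and 171 FPKM in control, 184, 226, 257 and 164 in CKD, and 209, 235, 189.9 and 202 in CKD+Fe. The 3 groups overlapped throughout. Its log2 change in CKD was 0.03 ± 0.17 (limma adjusted p = 0.875), but -0.54 after rescaling (adjusted p = 0.0184) and 0.41 with quantile normalization (adjusted p = 0.0122), so that no direction holds across scales. The summed FPKM of 8 erythroid genes was 121, 113 and 118 in mice 042301, 022301 and 110310, where Prdx2 was at 267, 226 and 257 FPKM, and 16.7 to 68.4 in the other 9 mice, where Prdx2 was at 164 to 235. The part of red cells in the Prdx2 values was not tested.

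Prdx6 (ENSMUSG00000026701, chr1:161240112-161251219, minus strand), a peroxidase that uses glutathione and also acts on phospholipids, had 222, 224, 192 and 205 FPKM in control. The CKD mice had 159.7, 171, 195 and 179 FPKM and the CKD+Fe mice 171, 219, 179.8 and 209. CKD mouse 110310 alone overlapped the controls. The log2 change of -0.26 ± 0.12 was not called (limma adjusted p = 0.0801, 95% interval -0.52 to 0.01), whereas after rescaling it was -0.83 (adjusted p = 0.000261). It was called without mouse 042301 (-0.30, adjusted p = 0.0479) or without mouse 110310 (-0.31, adjusted p = 0.0450), and was 0.14 with quantile normalization (adjusted p = 0.340), so its sign too depends on the scale.

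In the ER, Prdx4 (ENSMUSG00000025289, chrX:155323918-155340754, minus strand) uses peroxide made during disulfide formation. It was at 28.9, 26.1, 30.1 and 26.8 FPKM in control, 37.6, 39.2, 41.9 and 28.7 in CKD, and 39.8, 41.5, 34.1 and 33.8 in CKD+Fe. CKD mouse 120102 lay within the controls, while all CKD+Fe mice lay above them. The log2 change in CKD was 0.37 ± 0.13 (limma adjusted p = 0.0235), smaller than the median gene's 0.50, and -0.19 after rescaling (adjusted p = 0.265), so its sign depends on the scale. The call was lost when any 1 of control mice 012822 or 042310 or CKD mice 021320, 022301 or 110310 was left out (adjusted p 0.0511 to 0.0638), and with quantile normalization (0.14, adjusted p = 0.386).

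**Figure D1:**
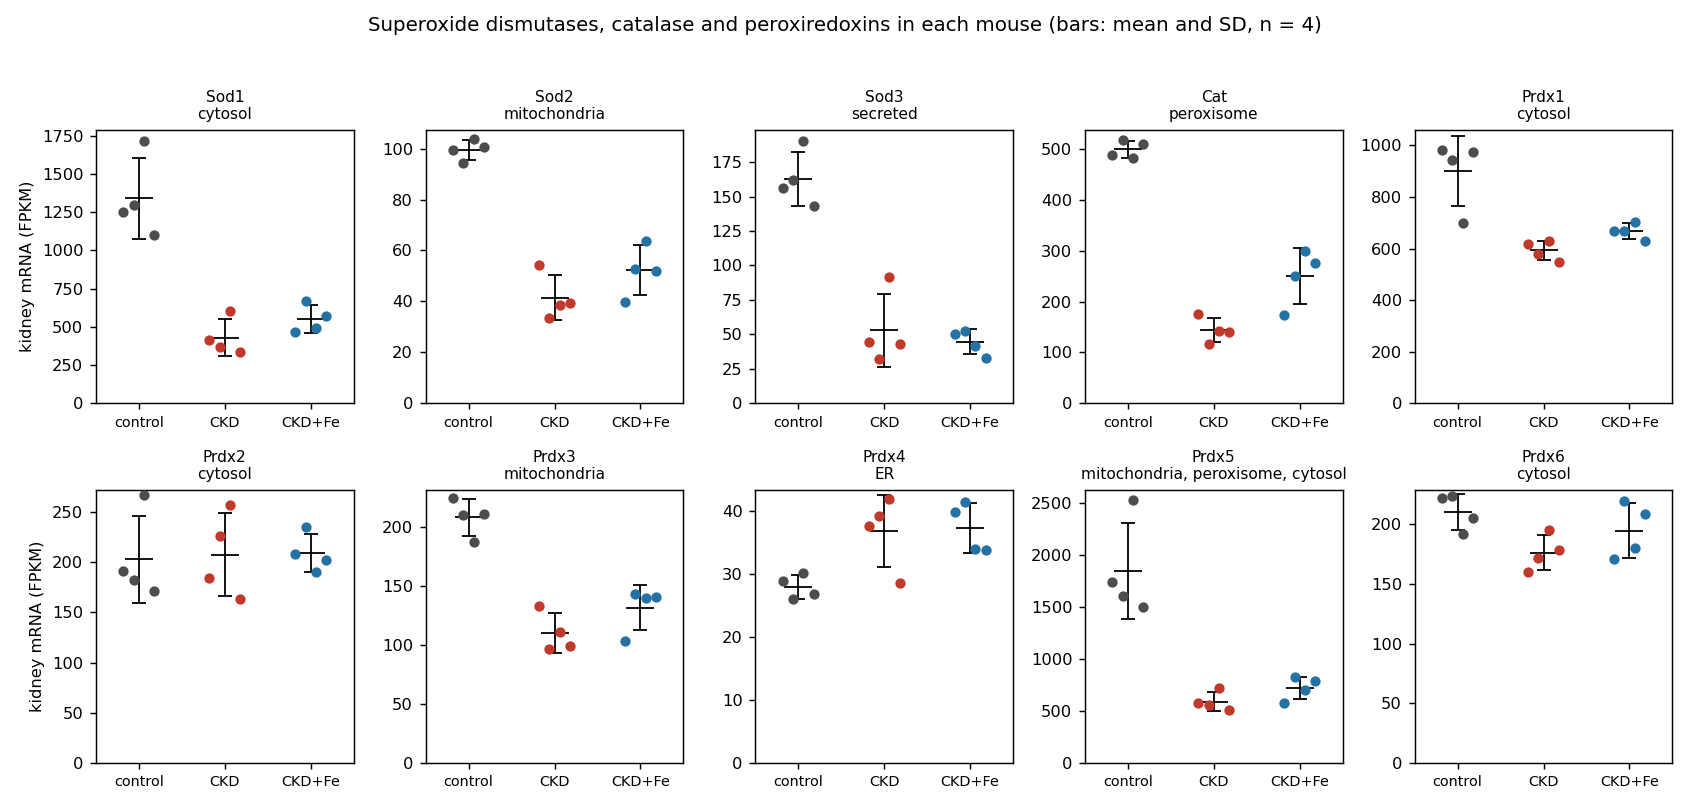
Kidney mRNA level of each gene in FPKM on linear axes that start at 0. Each point is a mouse and the bars give mean and SD (n = 4 per group). Control points lie above all adenine-fed points for Sod1, Sod2, Sod3, Cat, Prdx3 and Prdx5, while the groups of Prdx2 overlap.

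CKD kidneys thus had less mRNA for 7 of the 10 enzymes at an adjusted p under 0.05, where 13.3% of all genes tested were lower. By compartment these were Sod1 and Prdx1 of the cytosol, Sod2 and Prdx3 of mitochondria, Cat of the peroxisome and Sod3 outside the cell. Prdx5, found in mitochondria, peroxisomes and cytosol, was the other. Prdx4 of the ER was the 1 called higher, where 54.6% of all genes tested were higher. The 7 lower genes were also those with every CKD mouse below every control mouse, which held for 10.4% of genes tested, and each had an exact permutation p of 0.0286, the smallest that 4 against 4 allows. After rescaling, 9 of the 10 were lower, all but Prdx4, against 29.3% of genes tested, and 0 were higher, against 28.8%. The median change of the 10 was -1.09 as deposited, beside 0.50 for all genes tested, and -1.67 after rescaling.

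The order of levels changed accordingly. In CKD kidney Prdx1 at 593 ± 37.7 FPKM and Prdx5 at 588 ± 90.7 led with overlapping ranges, Sod1 followed at 429 ± 120.2, and Prdx2, at 208 ± 41.7, had the higher mean beside Prdx6 and Cat at 144 ± 24.2, with ranges overlapping at each step. Sod3, Sod2 and Prdx4, at 52.9 ± 26.7, 41.5 ± 8.99 and 36.8 ± 5.75 FPKM, overlapped from each to the next, although control kidney had 3.56 times as much Sod2 as Prdx4.

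Ratios between 2 of these transcripts within a mouse do not depend on how a library is scaled, so 8 pairs were compared with exact two-sided permutation tests. Cat to Prdx1, the peroxisomal against the cytosolic peroxide enzyme, was 0.496, 0.549, 0.690 and 0.523 in control and 0.284, 0.202, 0.227 and 0.257 in CKD. Every CKD mouse was below every control. The difference on the log2 scale was -1.22 (exact p = 0.0286, adjusted over 8 pairs 0.0571).

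Prdx5 exceeded Prdx1 in all 4 control mice, with ratios of 1.77, 1.71, 3.62 and 1.54. In CKD the ratios were 0.924, 0.958, 1.14 and 0.927, a log2 difference of -1.04 (exact p = 0.0286, adjusted 0.0571). Mouse 042301 was the source of the high control value, and the groups were apart with or without it.

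Prdx4 to Prdx1 went the other way, from 0.0293, 0.0277, 0.0431 and 0.0275 in control to 0.0607, 0.0677, 0.0667 and 0.0524 in CKD. The log2 difference was 0.98, with every CKD mouse above every control (exact p = 0.0286, adjusted 0.0571). The ER transcript was thus higher relative to the cytosolic one in each CKD mouse, whatever the scaling of its library. Prdx3 to Prdx1 differed by -0.34, again with no overlap (exact p = 0.0286, adjusted 0.0571). The other 4 pairs overlapped: Prdx2 and Prdx6 to Prdx1 differed by 0.62 and 0.33 (exact p = 0.0857 and 0.0571), and Sod2 and Sod3 to Sod1 by 0.38 and -0.07 (exact p = 0.171 and 0.743). With 4 of 8 pairs at the smallest possible p, the adjusted values could not go below 0.0571. With Prdx6 in place of Prdx1 as the reference, the log2 differences were -1.55 for Cat, -1.38 for Prdx5, -0.67 for Prdx3 and 0.64 for Prdx4.

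**Figure D2:**
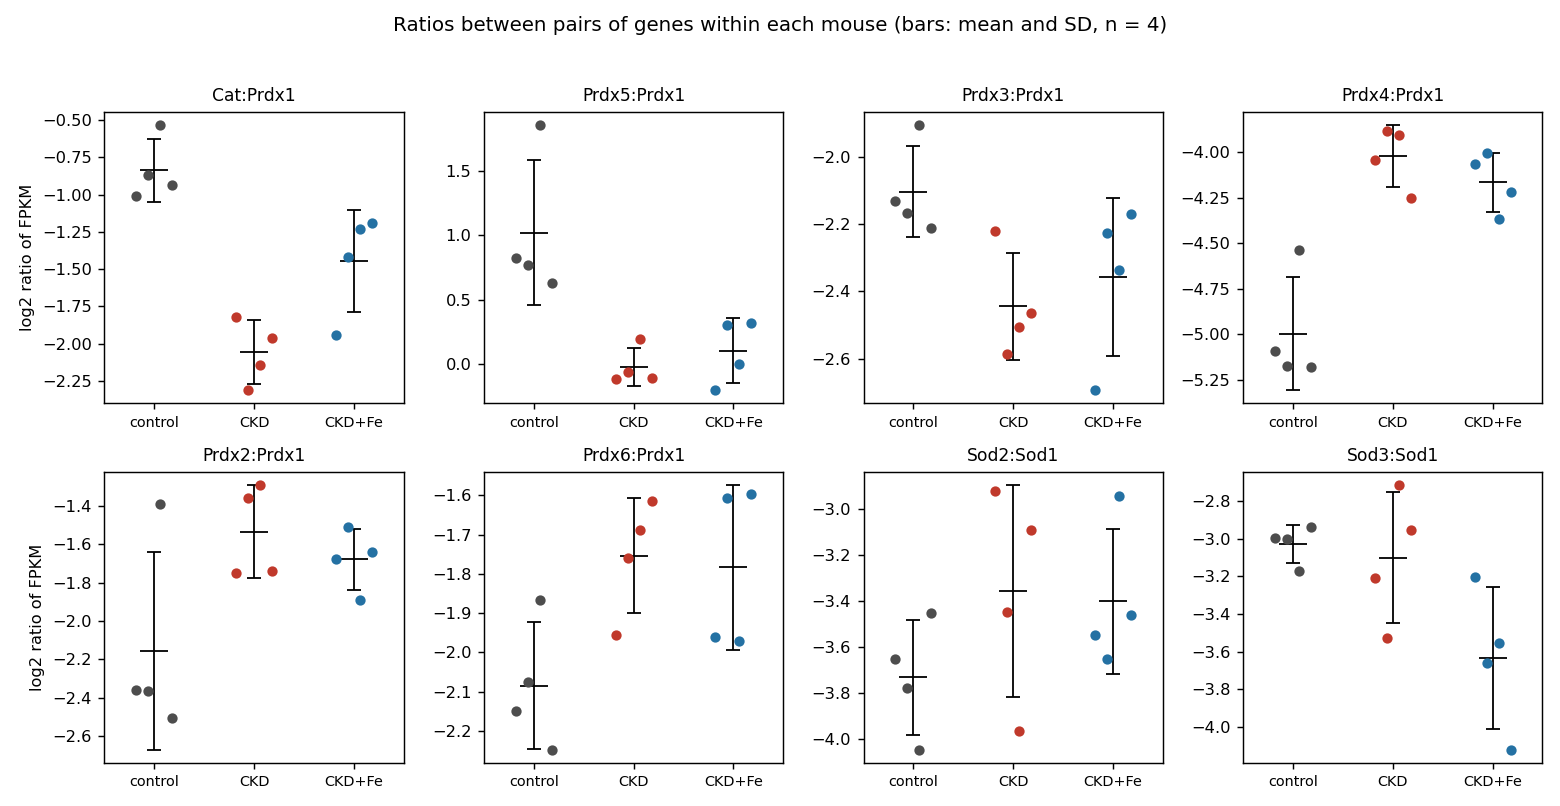
Ratio of pairs of transcripts within each mouse, on a log2 axis that differs between panels; points are mice, bars mean and SD (n = 4). CKD points lie below all control points for Cat, Prdx5 and Prdx3 to Prdx1, and above them for Prdx4 to Prdx1.

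With iron, none of the 10 genes was called against untreated CKD, where 0.00761% of all genes tested were called in either direction. The unadjusted limma p was under 0.05 and the change positive for 1 of the 10, Cat, as for 3.28% of genes tested. Cat averaged 249.98 ± 54.5 FPKM in CKD+Fe and 144 ± 24.2 in CKD, a log2 change of 0.78 ± 0.17 (95% interval 0.41 to 1.15) with a limma adjusted p of 0.254. The exact permutation p was 0.0571, since mouse 042702 lay below the highest CKD mouse. Without mouse 042702 the change was 0.94 and was called (limma adjusted p = 0.0322), as it was with array quality weights (0.89, adjusted p = 0.0174) and without the 3 mice that stood apart (0.94, adjusted p = 0.0332). How many of all genes were called under those settings was not counted. When 1 mouse at a time was left out, the change ran from 0.68 to 0.94. Its limma adjusted p then ran from 0.0322 to 0.942. With only the 2 groups fitted, the limma adjusted p was 0.673. Relative to Prdx1 in the same mouse, Cat was at 0.261, 0.375, 0.425 and 0.438 in CKD+Fe, a log2 difference of 0.61 from CKD (exact p = 0.0571, adjusted over 8 pairs 0.343). Other genes had changes in the same comparison, none of them called: the median was 0.48 over 14 proximal tubule genes, 3 of them at an unadjusted p under 0.05, and -0.63 over 6 tubule injury genes, 4 of them under 0.05. For negative changes, the share of all genes tested with an unadjusted p under 0.05 was not counted. Over 19 peroxisome genes the median was 0.14, with 3 under 0.05, Acaa1b at 1.26, Ehhadh at 1.18 and Acox2 at 0.82, named after their values were seen. Their part in the Cat value was not tested.

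Prdx1 was the 1 gene with all CKD+Fe mice above all CKD mice, which 1.35% of genes tested showed. Its means were 667 ± 30.1 and 593 ± 37.7 FPKM, a log2 change of only 0.17 ± 0.14 (limma adjusted p = 0.959, exact p = 0.0286 for a single gene). The other positive changes were 0.38 for Sod1, 0.33 for Sod2, 0.30 for Prdx5, 0.26 for Prdx3, 0.14 for Prdx6 and 0.03 for Prdx2 and Prdx4, and Sod3 had -0.15. Their 95% intervals all held 0, from -0.71 to 0.40 for Sod3 to -0.06 to 0.82 for Sod1. The median of the 10 was 0.21, and 0.22 after rescaling, beside -0.0005 for all genes tested.

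**Figure D3:**
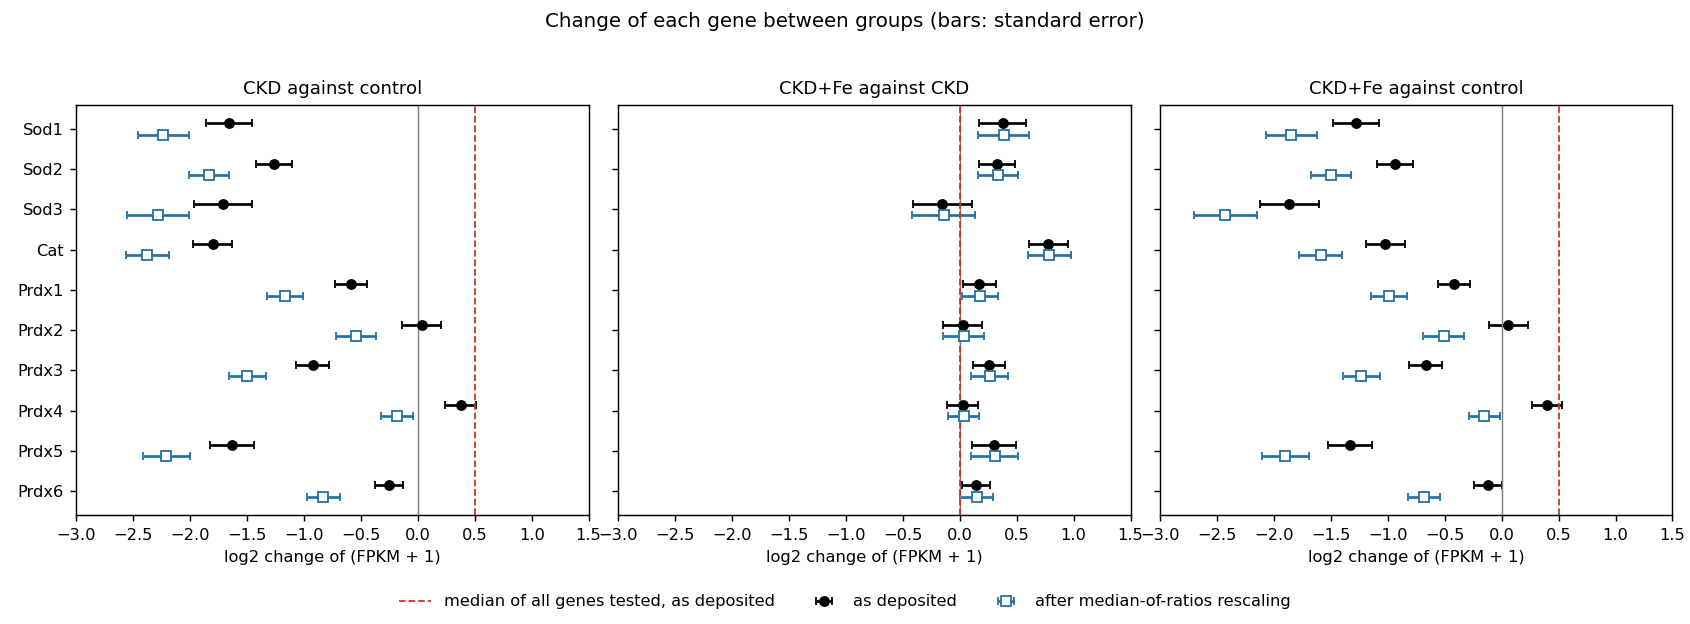
Change of each gene as log2(FPKM + 1) with its standard error, for the 3 comparisons, as deposited (black) and after median-of-ratios rescaling (blue squares). The red dashed line is the median of all genes tested as deposited, 0.50 against control; the signs of Prdx2 and Prdx4 against control flip with rescaling.

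Set against the control mice, which also served the first comparison, CKD+Fe kidneys had 7 of the 10 genes called lower, where 11% of genes tested were, and Prdx4 called higher, where 54.4% were. Sod3 was at 27.3% of control (log2 change -1.86 ± 0.26), Prdx5 at 39.2% (-1.33 ± 0.19), Sod1 at 41.0% (-1.28 ± 0.21), Cat at 50.1% (-1.02 ± 0.17) and Sod2 at 52.4% (-0.94 ± 0.16). Prdx3 was at 63.1% (-0.67 ± 0.14) and Prdx1 at 74.2% (-0.42 ± 0.14, limma adjusted p = 0.0202), a call that was lost without control mouse 012811, 012822 or 042310 or CKD+Fe mouse 122320 (adjusted p 0.0534 to 0.0658). All of these but Prdx1 had every CKD+Fe mouse below every control mouse, 6 genes, against 9.82% of genes tested. Prdx4 had a log2 change of 0.40 ± 0.13 (limma adjusted p = 0.0178), and -0.15 after rescaling, and was not called without control mouse 012822 or CKD+Fe mouse 062910 (adjusted p = 0.0507 and 0.0538). With quantile normalization neither Prdx3 (-0.40, adjusted p = 0.0637) nor Prdx1 (-0.15, adjusted p = 0.530) was called, nor was Prdx4 (0.16, adjusted p = 0.344). Prdx2 (0.06 ± 0.17) and Prdx6 (-0.12 ± 0.12) were not called on the deposited scale. After rescaling both were called lower, at -0.51 and -0.68 (limma adjusted p = 0.0268 and 0.00137). With quantile normalization Prdx2 was called higher, at 0.35 (adjusted p = 0.0314), and Prdx6 was at 0.19 and not called (adjusted p = 0.201). Sod3 to Sod1, which did not separate CKD from control, did separate CKD+Fe from control, at 0.108, 0.0792, 0.0851 and 0.0575 against 0.125, 0.125, 0.111 and 0.130 (log2 difference -0.61, exact p = 0.0286, adjusted 0.0571).

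The partners of these enzymes were read from lists in which the 10 genes do not appear. Over all genes tested, 13.3% were lower and 54.6% higher in CKD, and 29.3% and 28.8% after rescaling. Each list count for CKD against control below stands beside these shares. Of 10 genes listed around peroxiredoxin and thioredoxin recycling, not all of them recycling enzymes, 3 were lower and 4 higher in CKD, with a median of 0.20. After rescaling 4 were lower and 2 higher. Txnip, the thioredoxin-interacting protein, was among the 4 higher (1.14 ± 0.37, limma adjusted p = 0.0147), but was not called after rescaling (0.57, adjusted p = 0.193). Txn1, the cytosolic thioredoxin, fell from 467 ± 82.9 to 319 ± 30.2 FPKM (log2 change -0.54 ± 0.14) and Txn2, its mitochondrial counterpart, from 249 ± 54.4 to 127 ± 30.3 (-0.97 ± 0.18). Mitochondrial thioredoxin reductase Txnrd2 fell by 0.82, and cytosolic Txnrd1 had 0.13 ± 0.48 and was not called. Srxn1, the sulfiredoxin that restores overoxidized peroxiredoxins, was at 31.0 ± 3.50 and 38.6 ± 3.91 FPKM (0.31 ± 0.12, limma adjusted p = 0.0360), but -0.25 after rescaling. Sesn1 and Sesn3, stress-induced sestrins, rose by 1.34 and 1.23, and remained higher after rescaling by 0.82 and 0.74.

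In the list for copper supply and superoxide dismutase maturation, 1 gene was lower and 3 were higher of 6 tested. Of all genes tested 13.3% were lower and 54.6% higher. Ccs, the chaperone that loads copper onto Sod1, fell with it, from 133 ± 13.6 to 63.6 ± 12.7 FPKM (-1.07 ± 0.14, and -1.64 after rescaling). The copper transporters Atp7a and Slc31a2 had log2 changes of 1.44 ± 0.46 and 1.10 ± 0.19, with Atp7a low in control at 1.27 FPKM. The other gene called higher was Slc39a14, at 1.03 ± 0.26. The copper transporter Slc31a1 had -0.42 ± 0.19 and was not called (limma adjusted p = 0.0698). After rescaling only Slc31a2 was called higher in this list, at 0.55, and 3 were lower: Ccs, Slc31a1 at -0.98 and Atox1 at -0.64.

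Genes of the peroxisome and mitochondrial lists were mostly lower. Of 19 peroxisome genes tested, 14 were lower and 0 higher, with a median of -0.75, and 19 were lower after rescaling. The fatty acid oxidation genes Ehhadh and Acox2 had -2.44 ± 0.43 and -2.05 ± 0.26, and Cat at -1.80 lay between them and the median. Of 14 mitochondrial housekeeping genes 9 were lower and 0 higher, with a median of -0.67 (14 lower after rescaling), and the matrix chaperones Hspd1 and Hspe1 had -1.34 ± 0.21 and -1.28 ± 0.19, beside -1.26 for Sod2 and -0.92 for Prdx3. Of 13 ER folding genes 2 were lower and 1 higher, with a median of -0.10. Erp44, an ER retention factor for oxidoreductases, fell by 0.63, Txndc5 had 0.58 ± 0.13, and Ero1l, the oxidase that makes peroxide in the ER, had 0.50 ± 0.23 (limma adjusted p = 0.070). After rescaling, Txndc5 was at 0.02 and Ero1l at 0.00, and 8 of the 13 were lower.

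The glutathione peroxidases, the other large group of peroxide-removing enzymes, split: 4 of 6 tested were lower and 2 higher, with a median of -0.80. Gpx1, the cytosolic and mitochondrial form, went from 4937 ± 495 to 2848 ± 940.3 FPKM (-0.84 ± 0.23). Gpx7 and Gpx8, the ER forms, rose by 1.99 and 1.20 and stayed higher after rescaling, by 1.54 and 0.64. Of the 6 vascular and smooth muscle genes tested as neighbours of Sod3, 0 were lower and 2 higher, the contractile genes Tagln and Acta2, at 1.97 ± 0.20 and 1.14 ± 0.24. The smooth muscle genes Myh11 and Cnn1 had the opposite sign, at -0.31 ± 0.27 and -0.25 ± 0.28, and were not called. After rescaling 2 were lower, Myh11 at -0.74 and Fbln5 at -0.54, and 1 higher, Tagln at 1.41. Acta2 was then at 0.58 and not called (limma adjusted p = 0.0588). In CKD+Fe against CKD, 0 genes of these 7 lists were called by limma, and 5 had an unadjusted p under 0.05. All 5 had a positive change, which 3.28% of all genes tested showed at that p.

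**Figure D4:**
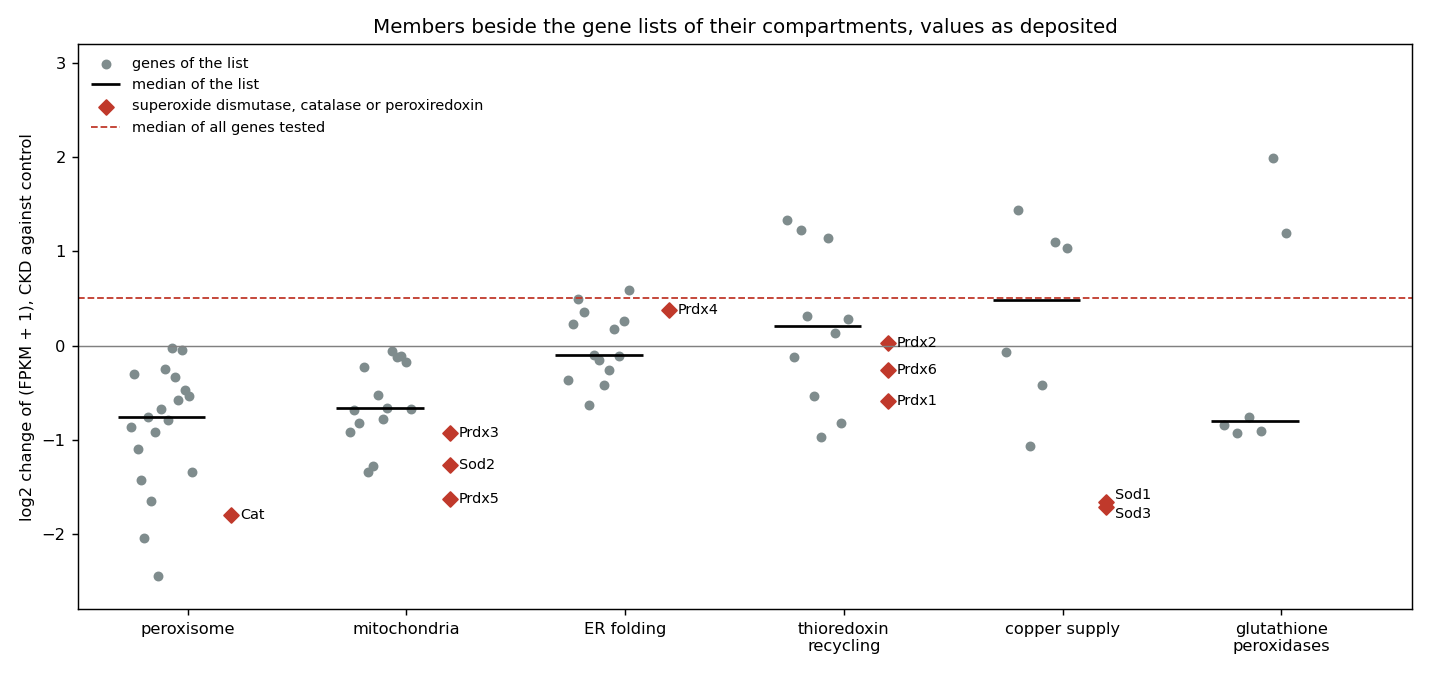
Log2 change of FPKM + 1 in CKD against control for the genes of 6 lists (grey points, black line the list's median) and for the superoxide dismutases, catalase and peroxiredoxins placed beside the list of their compartment or partners (red diamonds). Prdx6, which uses glutathione, is drawn beside the thioredoxin list only to stand with Prdx1 and Prdx2. The dashed line is the median of all genes tested, 0.50; after rescaling all points lie lower, and Prdx2 and Prdx4 fall below 0.

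Markers of other cell types moved with disease, and their part in the enzyme values was not tested. Of 14 proximal tubule genes 13 were lower in CKD (Kap -4.84, Acsm2 -3.84). The summed FPKM of the 14 was 74150 to 97953 in control, 2270 to 9601 in CKD and 3282 to 13075 in CKD+Fe. Most of it was Kap, with means of 73018, 3585 and 4437 FPKM in the 3 groups. All 10 macrophage genes were higher (Lyz2 4.81, Cd14 3.61), with sums of 125 to 261, 1824 to 3823 and 1706 to 3807 FPKM. All 3 neutrophil genes tested (S100a8 4.34, S100a9 4.16), all 7 fibroblast genes (Col3a1 3.55, Col1a2 2.89) and all 6 tubule injury genes (Lcn2 7.05, Havcr1 6.05) were higher, as were 3 of 4 T and B cell genes (Cd79b 1.18, Cd3g 0.94). After rescaling the counts of these lists were the same but for T and B cells, where 1 of 4, Cd79b, was higher and Cd3g was at 0.55 (limma adjusted p = 0.181). Of 11 genes of other nephron segments 2 were lower (Aqp2 -1.24, Slc4a1 -1.21), and 4 after rescaling. Of 6 erythroid genes 1 was lower, the same Slc4a1 value, which is in both lists. Another, Epb42, was higher (0.86), from a mean of 0.34 to 1.54 FPKM. The hemoglobin genes were not called (Hba-a1 -0.48 ± 0.82, Hbb-bs -0.28 ± 0.90). Of 7 papilla and urothelium genes none was called. The papilla and urothelium sum was 141 FPKM in control mouse 042301 and 1.40 to 53.3 in the other controls.

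As a description, each gene was set beside the genes whose mean-centred log2(FPKM + 1) differed least from its own over the 12 mice, measured as a root mean square difference over 13131 genes. Sod1 and Prdx5 were among each other's nearest, at 0.115, and Ccdc107 was near both. Sod2 was nearest to Uqcrfs1, a complex III subunit (0.121), followed by Mdh1 and Etfa, and Prdx3 had Atp5f1 (0.0745) and Tmem116 among its nearest. Cat had Notum (0.126), Slc13a3, a proximal tubule dicarboxylate transporter, and Gcdh as its nearest, while Sod3, with Ppt2 at 0.194, then Tbx10 and Acads, had no gene as close as the other members had. Prdx1 was nearest to Mcfd2 (0.0766), Timm17a and Nt5c3, Prdx2 to Naca (0.0736), 1810043G02Rik and Elp5, Prdx4 to Cmss1 (0.0707), Cdc16 and H2afy, and Prdx6 to Tmed4 (0.0925), Atp5l and Urod. For Sod1 and Prdx5 the single nearest genes were Tmem205 (0.104) and Pcbd1 (0.114). The distances share libraries and scale, and the genes with small changes have small distances by construction.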

How the data were processed

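Whole-kidney RNA of 12 mice was sequenced by the study. The authors aligned reads with STAR 2.5.2 and made the deposited FPKM values with Cufflinks 2.1.1 on GRCm38, after bcl2fastq 2.19, as the submitters' processing notes list them. Fragments shared by near-identical copies are divided by estimation in Cufflinks. The 30 values flagged as failed were treated as missing. Groups came from the sample titles, and each mouse is a replicate. FPKM holds no read depth, so no counting interval is given.

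The 13148 genes that reached 1 FPKM in 4 or more mice were fitted as log2(FPKM + 1) with limma 3.58.1 (R 4.3.3) in 1 fit of 12 mice, with variance trend and Benjamini-Hochberg adjustment over all genes tested. Single genes and within-mouse FPKM ratios were compared with exact two-sided permutation tests (70 arrangements, smallest p 0.0286). The script was tested on simulated data. Named partner genes were the 2 with the largest change in either direction among those called in each list, and a few fixed partners. Myh11, Cnn1, Fbln5, Txnip, Slc39a14, Slc31a1, Atox1, Hba-a1 and Hbb-bs were named after their values were seen. Alternatives were other pseudocounts, filters, scalings, weights, thresholds and left-out mice, and, chosen after seeing the data, GC and length adjustment and leaving out the 3 mice that stood apart. The members and lists were chosen with earlier results of these data known. Promoter windows and names were matched by symbol to RefSeq. One of the nearest genes by pattern is not reported here.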

Additional observations from a re-analysis of the deposited data

Results flagged for a closer look

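Among 30 groups of 4 values (10 genes in 3 groups), 2 had a mouse far from its group by Dixon's criterion, and chance alone flags about 1 group in 20. Prdx1 was lowest in control mouse 042301, at 699 FPKM, with the other controls at 942 to 984. Prdx3 was lowest in CKD+Fe mouse 042702, at 103 FPKM, with the others at 139 to 143. Both mice also stood apart from their groups over all genes. Without mouse 042301, the Prdx1 change in CKD was -0.71 (limma adjusted p = 0.000278), beside -0.59 with it. Without mouse 042702, the Prdx3 change of CKD+Fe against CKD was 0.37 (limma adjusted p = 0.312), beside 0.26 with it.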

How the results depend on the processing

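Of the 10 genes, 7 were called lower in CKD against control, and 6 to 9 under the alternatives. In CKD against control the 9 came with rescaling, where 29.3% of all genes tested were lower, in place of 13.3%. Under the other alternatives this share was not counted. In CKD+Fe against control 7 were called lower, and 5 to 9 under the alternatives. Rescaling turned Prdx2 and Prdx4 to -0.54 and -0.19 in CKD against control and to -0.51 and -0.15 in CKD+Fe against control, and left 0 genes called higher in both comparisons, in place of 1. After GC and length adjustment 0 were called higher in CKD+Fe against control. Leaving out 1 mouse at a time gave 0 to 1 called higher in each of the 3 comparisons. In CKD+Fe against CKD, 1 gene, Cat, was called higher with array quality weights, at a threshold of 0.5 and without the 3 mice that stood apart, in place of 0. Over all alternatives, the single-gene results kept both their direction and their side of the threshold in 156 of 180 cases for CKD against control, 166 of 180 for CKD+Fe against CKD and 161 of 180 for CKD+Fe against control; direction changed only for Prdx2, Prdx4, Prdx6 and, in CKD+Fe against CKD, Sod3. The cause of these dependences was not tested. With 4 mice a group the adjusted p of the ratios could hardly pass, so their side of the threshold says nothing about stability. No paired analysis was possible because the groups share no replicate numbers. FPKM holds no depth, so precision rests on 4 mice a group.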
